A study of Drosophila montana with 12 samples.

Results

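The 200 contigs described here were those of a *Drosophila montana* transcriptome with the clearest excess of reads in diapausing females. A contig is a stretch of transcript assembled from the reads, and its level was given in CPM, its reads per 1000000 reads counted in that library. Among 21102 contigs whose mean over the 12 libraries was 5 CPM or more (of 31233 contigs counted), they had the highest ratios of the lowest CPM in a diapausing library to the highest CPM in a nondiapausing library plus 0.1 CPM. The difference between diapausing and nondiapausing females therefore chose these contigs. It is given as a description without a test, and nothing is read from its size or from the lack of overlap.

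Each library was made from polyA RNA of a pool of 10 whole females, 21 days after eclosion, with 4 groups of 3 libraries. Diapausing females had been kept at LD 16:8 (16 h of light and 8 h of dark) or at the critical day length (CDL, with 5.5 h of dark), and nondiapausing females at the CDL or at LD 22:2 (22 h of light and 2 h of dark). The flies belonged to isofemale lines, stocks founded by 1 wild-caught female each. At LD 16:8 and LD 22:2 only line 175OJ8 was used, and at the CDL the 3 libraries of a state were from 175OJ8, 265OJ8, and 3OL8, 1 library per line. Libraries of the 3 lines are therefore replicates of a CDL group that also differ in genotype, and separate cultures were not stated for the 3 libraries of a group at the other light cycles, so their spread may be partly technical.

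In reproductive diapause a female fly stops yolk formation and keeps her ovaries small, and reserves are stored for winter. Day length is the main cue, and near the CDL females of one cohort split between diapause and reproduction. Whole-body RNA of a reproducing female holds a large contribution of ovary transcripts, which a diapausing female largely lacks, so fewer cells of a type and less RNA per cell cannot be told apart in these pools. Yolk protein transcripts served as the check of reproductive state. The contig of *Yp2*, which encodes a yolk protein, had 20.9, 24.8, and 34.9 CPM at LD 16:8 and 111, 51.3, and 70.1 CPM at the CDL in diapausing libraries, against 521, 503, and 438 CPM at the CDL and 294, 409, and 424 CPM at LD 22:2 in nondiapausing females. The contig of *Yp3*, a second yolk protein gene, was at 91.0 to 442 CPM in diapausing libraries and at 966 to 1720 CPM in nondiapausing libraries. Both separated the groups in the direction of the labels.

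Read totals ran between 4679623 and 5764157 in the diapausing libraries and between 2986505 and 6637623 in the nondiapausing libraries. The TMM factors, which correct totals for a few abundant transcripts or a broad shift in composition, were 0.837 to 0.921 in diapausing and 1.09 to 1.15 in nondiapausing libraries. They moved the median contig by 0.34 on the log2 scale, with a fold of diapausing over nondiapausing of 0.755 on library totals and 0.958 with TMM. On library totals 36.4% of the contigs of 5 CPM or more were higher in diapausing females, 11.9% had every diapausing library above every nondiapausing library, and 37.5% had every one below.

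The 200 contigs together held 4.86 ± 0.486% of the reads in diapausing libraries and 1.10 ± 0.145% in nondiapausing libraries (SD, n = 6 each). By group the share was 4.95 ± 0.451% at LD 16:8 and 4.76 ± 0.600% at the CDL in diapausing females, and 1.13 ± 0.108% at the CDL and 1.07 ± 0.194% at LD 22:2 in nondiapausing females (SD, n = 3 each). Mean levels in diapausing females ranged between 8.09 and 2850 CPM with a median of 82.9 CPM, and 14 contigs were at 1000 CPM or more, 71 at 100 to 1000 CPM, and 115 under 100 CPM. The fold of mean CPM, diapausing over nondiapausing, had a median of 3.93 and a range of 2.62 to 44.1. It was under 3 for 9 contigs, 3 to 5 for 150, 5 to 10 for 38, and 10 or more for 3 contigs. With TMM scaling the median fold was 4.99. Levels were not corrected for contig length, so CPM were compared between libraries and not between contigs.

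The ratio that ranked the contigs was 17.7 for contig_601, 4.70 for the next contig, and 2.02 for the last, with a median of 2.3, and 21 contigs reached 3. The 3 contigs just inside the limit were contig_138, contig_1534, and contig_8312, each at a ratio of 2.02. Just outside it stood contig_315 and contig_1457, both at 2.01, and contig_12036 at 2.00. The levels on the 2 sides of the limit were alike in kind: contig_8312 was at 26.2 to 44.1 CPM in diapausing and 8.04 to 12.9 CPM in nondiapausing libraries, and contig_315 at 324 to 557 CPM in diapausing and 101 to 161 CPM in nondiapausing libraries. The fold of means of contig_1457 was 5.20, above that of most contigs inside the limit.

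The library with the lowest diapausing value of a contig decided its rank, and 75 contigs had it in the CDL library of line 3OL8, which was the lowest diapausing library for 16.8% of the contigs of 5 CPM or more. The second LD 16:8 library was lowest for 48 of the 200 contigs (28.8% of contigs), and the third for 35 (11.2%). On the nondiapausing side the CDL library of line 265OJ8 was highest for 69 contigs (17.1%) and the third LD 22:2 library for 61 (11.4%). Over the 6 diapausing libraries the coefficient of variation had a median of 18.4% for the 200 contigs (7.28 to 54.9%) and 22.8% for the contigs of 5 CPM or more. Over the 6 nondiapausing libraries the medians were 20.5% for the 200 contigs (5.70 to 60.5%) and 18.5% for the contigs of 5 CPM or more. Small counts were few, with 14 contigs under 10 reads in at least 1 library and a lowest count of 3 reads.

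contig_601 stood apart from all the others. Its blast hit, the closest database sequence found for a contig, was the predicted protein XP_002049184. It had 376, 184, and 366 CPM in diapausing females at LD 16:8 and 369, 502, and 398 CPM in diapausing females at the CDL, against 6.34, 10.0, and 7.70 CPM in nondiapausing females at the CDL and 6.17, 10.3, and 9.19 CPM in nondiapausing females at LD 22:2. The mean was 366 ± 103 CPM in diapausing and 8.29 ± 1.82 CPM in nondiapausing libraries (SD, n = 6 each), a fold of 44.1. The second LD 16:8 library was the low one among the diapausing libraries, and even it was far above the highest nondiapausing library.

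contig_67 (XP_002055737) had the second ratio and was among the most abundant, at 2940, 2480, and 2610 CPM in diapausing females at LD 16:8 and 2690, 2440, and 2390 CPM in diapausing females at the CDL. In nondiapausing females it had 508, 503, and 478 CPM at the CDL and 300, 397, and 509 CPM at LD 22:2. Its diapausing libraries were close together, with a mean of 2590 ± 206 CPM against 449 ± 84.6 CPM in nondiapausing libraries (SD, n = 6 each), a fold of 5.78.

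The other 8 of the 10 highest ratios had folds of 5.02 to 9.28. contig_3867 (FBgn0200670), with the highest of these, was at 371, 452, and 213 CPM at LD 16:8 and 477, 343, and 221 CPM at the CDL in diapausing libraries, against 21.4, 34.8, and 38.8 CPM at the CDL and 46.9, 21.1, and 60.7 CPM at LD 22:2 in nondiapausing females. Its low diapausing libraries were the third of LD 16:8 and that of line 3OL8. contig_3665 (FBgn0211499) was at 77.8 to 142 CPM in diapausing and 9.71 to 21.9 CPM in nondiapausing libraries, a fold of 7.0. contig_4303 (XP_002050360) was at 57.1 to 115 CPM in diapausing and 7.70 to 15.7 CPM in nondiapausing libraries, a fold of 6.60. contig_26178 (XP_002051407) was at 250 to 749 CPM in diapausing libraries, the highest being 1 LD 16:8 library, and 47.9 to 73.4 CPM in nondiapausing libraries. The tightest of these 8 among the diapausing libraries was contig_1944 (XP_002054596), at 102 to 127 CPM in diapausing and 16.2 to 30.9 CPM in nondiapausing libraries. contig_933 (XP_002058207) was at 227 to 358 CPM in diapausing and 46.3 to 67.0 CPM in nondiapausing libraries. contig_2314, for which no hit was recorded, reached 820 to 1630 CPM in diapausing and 117 to 239 CPM in nondiapausing libraries.

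**Figure D1:**
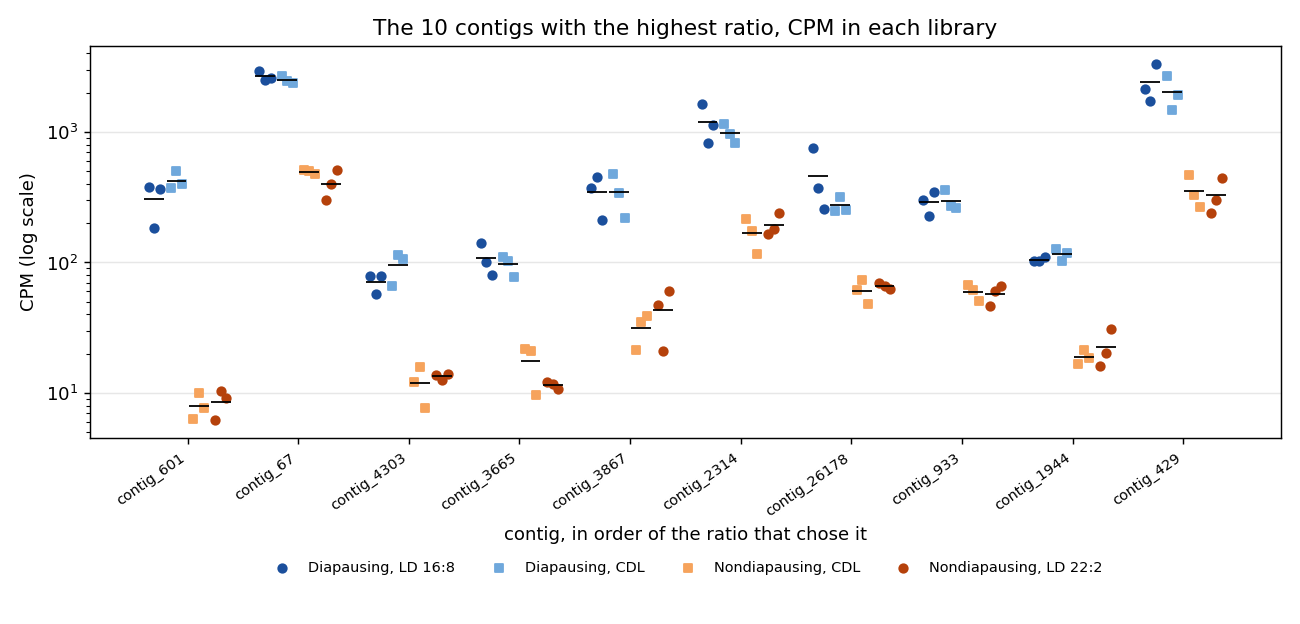
CPM (log axis) of the 10 contigs with the highest ratio in each of the 12 libraries, with a point per library and a bar at the mean of the 3 libraries of a group. At the CDL the points run in the order of lines 175OJ8, 265OJ8, and 3OL8. contig_601 lies at 184 to 502 CPM in diapausing and 6.17 to 10.3 CPM in nondiapausing libraries, a gap wider than that of the other 9 contigs.

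By mean CPM in diapausing females the 5 most abundant of the 200 were contig_4, contig_67, contig_2215, contig_190, and contig_429. contig_4 (XP_002052427) was at 2010 to 3860 CPM in diapausing and 577 to 981 CPM in nondiapausing libraries, with the third LD 22:2 library the highest of the nondiapausing ones. contig_2215 (AAY63991) was at 2010 to 3050 CPM in diapausing and 361 to 656 CPM in nondiapausing libraries, and contig_190 (XP_002049656) at 1920 to 2900 CPM in diapausing and 345 to 672 CPM in nondiapausing libraries. contig_429 (XP_002059020) was at 1480 to 3330 CPM in diapausing and 240 to 467 CPM in nondiapausing libraries. None of these groups overlapped, as the choice of the contigs required.

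The hits were recorded by accession only. Of the 200 contigs 128 (64.0%) had a predicted protein as their hit, 39 (19.5%) a FlyBase gene identifier, 21 (10.5%) another accession, and 8 (4.0%) a genomic scaffold, and 4 (2.0%) had no hit. Among the contigs of 5 CPM or more the shares in the same order were 59.3%, 19.8%, 8.80%, 11.1%, and 0.905%. The study lists 72 contigs with a gene name, all differentially expressed between day lengths within a state. None of the 200 contigs was among them, and with 72 of 31233 contigs so listed nothing is read from this. None of the hits of the 200 matched any of the 15263 genes of the reference table for *D. montana*, as was so for the hits of all 31233 contigs. For this reason none of the 149 gene symbols in 11 lists drawn up for diapause (among them insulin and juvenile hormone, circadian clock, stress and cold, yolk and eggshell, and gut, muscle, and immune genes) could be counted among the 200, and no gene name or function is given to them.

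The 200 contigs had 169 distinct hits, with a contig without a hit counted as its own. Of these, 149 hits belonged to a single contig of the list, and 20 hits were shared by 2 or more, 14 of them by 2 contigs and 6 by 3 or more, so that 51 contigs shared a hit with another. Contigs with the same hit may be pieces of 1 transcript or copies of related genes, and reads were counted only where they mapped to a single contig, so such contigs are not independent of each other. Of the 200 contigs 55.0% shared their hit with some other contig of 5 CPM or more, and so did 61.6% of all such contigs.

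The hit with most members was XP_002051642, with 6 of its 10 contigs in the list. These were contig_12915, contig_7216, contig_3505, contig_2257, contig_5386, and contig_7294, with folds of 3.33 to 4.57. In diapausing females contig_5386 had 194, 220, and 152 CPM at LD 16:8 and 225, 190, and 137 CPM at the CDL, against 49.2, 63.6, and 60.3 CPM at the CDL and 59.6, 42.2, and 60.4 CPM at LD 22:2 in nondiapausing females. Line 3OL8 was the lowest of the diapausing CDL libraries for all 6. The 4 other contigs with the hit lay outside the list with folds of 2.65 to 4.48, and in each every diapausing library was above every nondiapausing library. The hit ACY70496 had 4 contigs of the list, contig_47, contig_523, contig_1904, and contig_1383, with folds of 3.31 to 3.75, and its 3 other contigs had folds of 2.42 to 2.90. contig_1383 was the most abundant of the 4, at 316 to 616 CPM in diapausing and 93.6 to 152 CPM in nondiapausing libraries.

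Hits with consecutive FlyBase numbers held several of the contigs. FBgn0200668 had contig_659, contig_16653, and contig_7192 (folds of 4.36, 4.28, and 2.62, the last being the lowest of the 200), FBgn0200669 had contig_3608 (3.57), and FBgn0200670 had contig_3867, contig_3206, and contig_7095 (9.28, 6.92, and 4.02). The 12 other contigs of 5 CPM or more with the hit FBgn0200670 had folds of 1.24 to 4.62. In all, 8 pairs of hits had consecutive numbers, which together took 15 hits and 24 of the contigs. Such pairs were not counted among the hits of all contigs, so nothing is read from their number. One pair was XP_002049183 and XP_002049184, the hits of contig_18887 and of contig_601, and another XP_002049191 and XP_002049192, those of contig_242 and contig_1382. Whether such genes are neighbors in the genome was not tested.

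The hit XP_002050644 had contig_348, contig_20664, and contig_3004, with folds of 5.63, 5.99, and 5.59, and 10 other contigs of 5 CPM or more with folds of 0.900 to 4.19. The spread of folds within this hit was thus as wide as that between many hits.

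Scaffold NW_002014448 was the recorded hit of 4 contigs with wide folds, contig_2464 (15.1), contig_1309 (11.7), contig_3163 (9.34), and contig_3745 (4.83). contig_2464 had 1210, 1460, and 775 CPM at LD 16:8 and 1450, 808, and 430 CPM at the CDL in diapausing libraries, against 56.4, 41.7, and 78.7 CPM at the CDL and 56.5, 31.4, and 142 CPM at LD 22:2 in nondiapausing females. contig_1309 had 404, 606, and 324 CPM at LD 16:8 and 556, 237, and 190 CPM at the CDL in diapausing libraries, against 26.0, 16.4, and 32.1 CPM at the CDL and 36.4, 16.7, and 70.2 CPM at LD 22:2 in nondiapausing females. contig_3163 had 425, 711, and 390 CPM at LD 16:8 and 558, 276, and 225 CPM at the CDL in diapausing libraries, against 43.2, 23.8, and 49.6 CPM at the CDL and 50.6, 22.9, and 86.9 CPM at LD 22:2 in nondiapausing females. In these 3 contigs the second LD 16:8 library was the highest at that light cycle, line 175OJ8 was the highest diapausing line at the CDL, line 3OL8 was the highest nondiapausing line, and the third LD 22:2 library was the highest nondiapausing library. The scaffold was the hit of 61 contigs in all, and where on it a contig lies was not recorded. The 39 others of 5 CPM or more had folds of 0.263 to 2.94 with a median of 0.885. In 4 of these every diapausing library was above every nondiapausing library, as in 11.9% of all contigs of 5 CPM or more. In 11 every one was below, as in 37.5% of all such contigs, and nothing is read from these counts.

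Contigs outside the list that shared a hit with it were mostly higher in diapausing females too. Leaving the scaffolds aside there were 232, of which 186, over 65 hits, had 5 CPM or more. Of the 186, 150 (80.6%) had a higher mean CPM in diapausing females against 36.4% of all contigs of that level, 111 (59.7%) had every diapausing library above every nondiapausing library against 11.9%, and 15 (8.06%) had every one below against 37.5%. Their median fold was 2.48. These contigs were not chosen by the ratio, but some may be pieces of the same transcripts as the chosen ones, and no test was run on them.

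Among these 65 hits, with the scaffolds again left aside, 6 went partly the other way. In these 6 a contig of the list stood beside a contig whose every diapausing library was below every nondiapausing library. For FBgn0211499, contig_3665 was 7.0-fold higher in diapausing females, while contig_23835, contig_4399, and contig_7850 had folds of 0.317, 0.280, and 0.283. contig_7850 had 13.3, 17.9, and 18.0 CPM at LD 16:8 and 21.1, 20.6, and 17.1 CPM at the CDL in diapausing libraries, against 77.4, 63.3, and 61.3 CPM at the CDL and 67.4, 56.0, and 56.8 CPM at LD 22:2 in nondiapausing females. The contigs of this hit thus split into 2 opposite patterns with no overlap in either.

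For XP_002055113, contig_4050 had a fold of 3.76 and contig_1572 and contig_748 had folds of 0.426 and 0.415. contig_748 was at 6.25 to 11.6 CPM in diapausing and 22.3 to 26.1 CPM in nondiapausing libraries. For FBgn0200668, contig_21045 was at 3.64 to 6.41 CPM in diapausing and 13.2 to 17.7 CPM in nondiapausing libraries, a fold of 0.349, beside the 3 contigs with the same hit that were higher. The other 3 hits were XP_002051407, where contig_26178 was 5.77-fold higher and 8 other contigs had folds of 0.478 to 0.815, XP_002051672, where contig_19313 had a fold of 2.93 and 4 contigs were below in every library, and XP_002053194, where contig_5830 had a fold of 2.78 and 3 contigs were below in every library. Whether contigs of 1 such hit are transcripts of 1 gene, of related genes, or wrongly joined was not tested. These contigs were chosen after their values were seen.

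**Figure D2:**
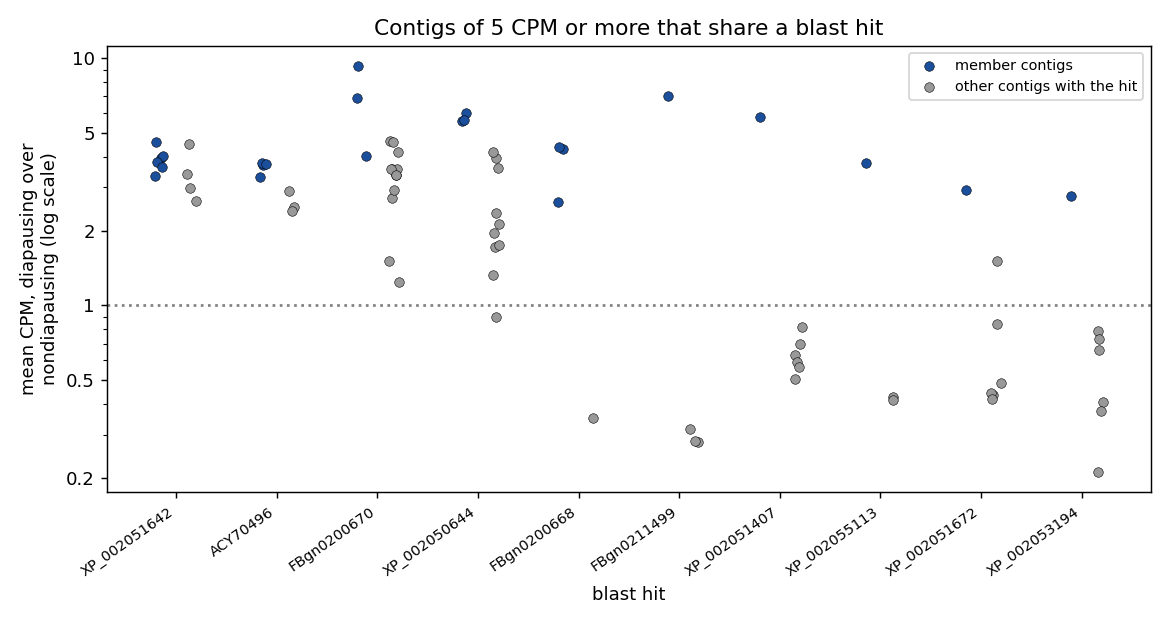
Fold of mean CPM, diapausing over nondiapausing (log axis), of contigs with at least 5 CPM for 10 blast hits, with contigs of the list in blue left of the other contigs with the same hit in gray, and no change at the dotted line. In XP_002051642, ACY70496, and FBgn0200670 all points lie above 1, whereas for FBgn0211499 contig_3665 is at 7.0 and the other 3 contigs are at 0.280 to 0.317.

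The difference between the states was next described apart for each line and light cycle. In the pair of CDL libraries of each line the median fold was 4.18 in 175OJ8 (2.20 to 58.1), 3.55 in 265OJ8 (2.06 to 50.0), and 3.51 in 3OL8 (2.12 to 51.7). For LD 16:8 over LD 22:2, all in 175OJ8, it was 4.11 (2.56 to 36.1). The fold was highest in 175OJ8 for 108 contigs, in 265OJ8 for 43, and in 3OL8 for 49, where these lines were highest for 33.7%, 33.3%, and 32.9% of the contigs of 5 CPM or more. These folds use the values that chose the contigs. The rank was set most often by the diapausing 3OL8 library (75 contigs) and the nondiapausing 265OJ8 library (69). Nothing is therefore read from the order of the lines. contig_601 had the highest fold in every one of these comparisons. Each value for a line at the CDL rests on 1 library of each state, so no error is given.

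**Figure D3:**
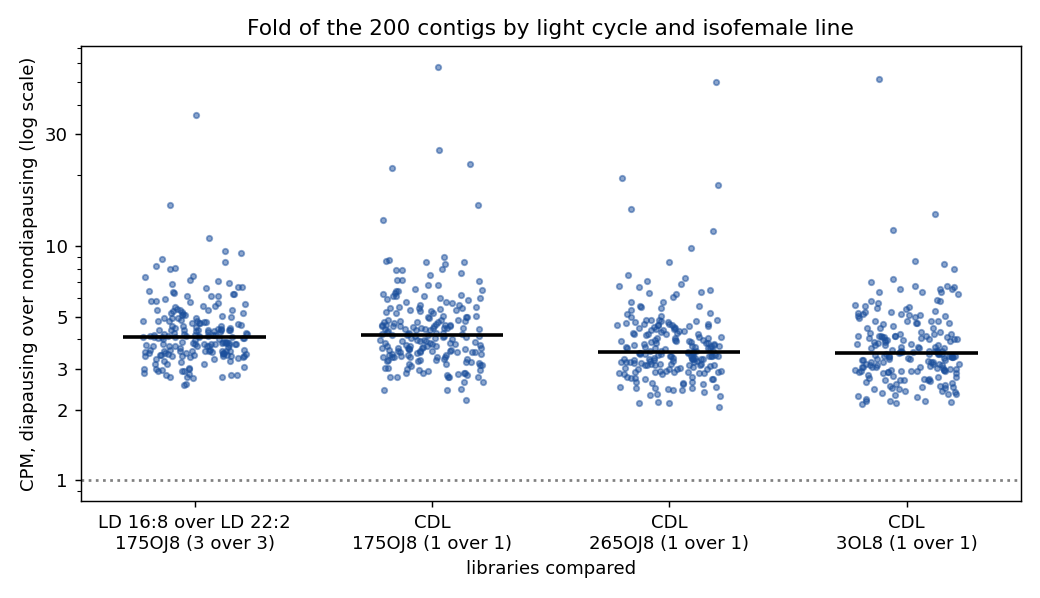
Fold in CPM, diapausing over nondiapausing (log axis), of the 200 contigs for LD 16:8 over LD 22:2 and for the CDL libraries of each isofemale line, with a point per contig and a bar at the median. The medians are 4.11, 4.18, 3.55, and 3.51, and all points lie above the dotted line at 1, which the rule required.

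Whether the size of the difference between the states was another one at the outer light cycles (LD 16:8 over LD 22:2) than at the CDL was tested in all 31233 contigs with the edgeR likelihood ratio test. None of the 200 contigs passed an FDR of 0.05, and 1 contig of all (0.0032%) did. At an unadjusted p under 0.05 in the likelihood ratio test there were 5 of the 200, where 3.39% of all contigs were. The quasi-likelihood test had 9 and DESeq2 had 11, with no share over all contigs beside them, so nothing is read from these counts. The quasi-likelihood test, which called 0% of all contigs, and DESeq2, which called 0.00643% of those with an adjusted p, called none of the 200 either. This test uses the same libraries as the choice of the contigs, which required a ratio of about 2.02 or more between any 2 libraries of opposite state and so limited how far the difference could vary with light cycle. The median of the log2 difference was 0.09 in the 200 contigs and -0.03 in all contigs. The lowest p belonged to contig_1221 (XP_002053559), with a log2 difference of 0.94 ± 0.414 (SE) and FDR = 1.0 by the likelihood ratio test in edgeR. It was at 100, 84.3, and 115 CPM at LD 16:8 and 91.8, 55.1, and 58.3 CPM at the CDL in diapausing libraries, against 21.1, 26.8, and 14.7 CPM at the CDL and 15.1, 13.8, and 18.5 CPM at LD 22:2 in nondiapausing females. The next was contig_263 (FBgn0201670), with a log2 difference of 0.75 ± 0.344 (SE) and FDR = 1.0 in the same edgeR test.

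Diapausing females at LD 16:8 were compared with diapausing females at the CDL. Each female was held at 1 constant light cycle, so a change of day length after diapause has begun was not tested. None of the 200 contigs was differentially expressed (DE) at FDR 0.05 in the likelihood ratio test, where 0.403% of all contigs were. At an unadjusted p under 0.05 in the likelihood ratio test there were 9, where 7.32% of all contigs were. The quasi-likelihood test had 13 and DESeq2 had 13, with no share over all contigs beside them, so nothing is read from these counts. Neither of these tests called any of the 200 (0.0064% of all contigs with the quasi-likelihood test and 0.835% of those with an adjusted p in DESeq2). The log2 fold changes ran between -0.68 and 0.78 with a median SE of 0.29. Their median was 0.02, against -0.03 in all contigs and -0.04 in those of 5 CPM or more. Of the 200, 188 lay within 0.5 of 0, as did 87.1% of contigs of 5 CPM or more. All 3 LD 16:8 libraries were above all 3 CDL libraries in 10 contigs (3.93% of contigs) and below them in 8 (7.45%). In line 175OJ8 alone, the 3 LD 16:8 libraries were all above the single CDL library in 21 contigs (20.6%) and all below it in 64 (31.3%). The choice used the lowest diapausing and the highest nondiapausing library, so it depended on the spread within a state too. The median coefficient of variation of the 200 was 18.4% against 22.8% in contigs of 5 CPM or more in diapausing libraries. In nondiapausing libraries it was 20.5% against 18.5%. How far the choice limited light cycle differences in either state was not tested, and nothing is read from a count below its background.

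The lowest p was that of contig_1003 (AAL25292). It had 32.1, 38.5, and 29.5 CPM at LD 16:8 against 51.2, 63.1, and 49.6 CPM at the CDL in diapausing libraries, with no overlap, and a log2 fold change of -0.68 ± 0.219 (SE; edgeR likelihood ratio FDR = 0.178, quasi-likelihood FDR = 0.264). contig_3574 (XP_002047406) had 53.9, 31.6, and 45.5 CPM at LD 16:8 against 32.4, 25.1, and 21.4 CPM at the CDL, where the groups overlapped, and a log2 fold change of 0.74 ± 0.253 (SE; edgeR likelihood ratio FDR = 0.244). Neither passed the threshold.

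Nondiapausing females at the CDL were compared with nondiapausing females at LD 22:2, again between constant light cycles. None of the 200 contigs was DE at FDR 0.05 in the likelihood ratio test, where 0.224% of all contigs were. At an unadjusted p under 0.05 in the likelihood ratio test there were 6, where 5.58% of all contigs were. The quasi-likelihood test had 8 and DESeq2 had 10, with no share over all contigs beside them, so nothing is read from these counts. Neither of these tests called any of the 200 (0.0032% of all contigs with the quasi-likelihood test and 1.11% of those with an adjusted p in DESeq2). DESeq2 gave no adjusted p for 107 of the 200, contig_242 and contig_3004 among them, and so could not call these. The log2 fold changes ran between -0.77 and 0.92 with a median SE of 0.308. Their median was 0.06, against 0.00 in all contigs and 0.01 in those of 5 CPM or more. Of the 200, 189 lay within 0.5 of 0, as did 91.3% of contigs of 5 CPM or more. All 3 CDL libraries were above all 3 LD 22:2 libraries in 13 contigs (8.23% of contigs) and below them in 3 (5.35%). In line 175OJ8 alone the CDL library was above all 3 LD 22:2 libraries in 54 contigs (33.9%) and below them in 29 (20.8%).

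contig_242 (XP_002049191) had 17.0, 25.6, and 10.0 CPM at the CDL against 8.44, 9.88, and 9.34 CPM at LD 22:2 in nondiapausing females, a log2 fold change of 0.92 ± 0.321 (SE; edgeR likelihood ratio FDR = 0.445). The library of line 265OJ8 was the highest, and that of 3OL8 was next to the LD 22:2 libraries. The CDL library of the line used at LD 22:2, at 17.0 CPM, was also above all LD 22:2 libraries. The log2 fold change was 0.58 without the 265OJ8 library and 1.17 without the 3OL8 library. With isofemale line as a term it was 1.04 (edgeR FDR = 0.171). contig_3004 (XP_002050644) had 7.37, 18.8, and 12.1 CPM at the CDL against 6.17, 4.84, and 9.64 CPM at LD 22:2, again with line 265OJ8 the highest, a log2 fold change of 0.84 ± 0.337 (SE; edgeR likelihood ratio FDR = 0.632). It was 0.43 without that library and 0.36 with isofemale line as a term. Neither passed the threshold.

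The interaction, the light cycle effect in diapausing females (LD 16:8 over CDL) less that in nondiapausing females (CDL over LD 22:2), was passed by none of the 200 contigs in the edgeR likelihood ratio test, where 1.07% of all contigs passed. At an unadjusted p under 0.05 in the likelihood ratio test there were 6, where 9.88% of all contigs were. The quasi-likelihood test had 10 and DESeq2 had 14, with no share over all contigs beside them, so nothing is read from these counts. The choice of the contigs used the level in every library, so this contrast is not independent of it. Again nothing is read from a count below its background. The quasi-likelihood test, which called 0.186% of all contigs, called none of them either, and DESeq2, which called 1.64% of those with an adjusted p, called contig_1003 (adjusted p = 0.0443). The median of the log2 interaction was -0.03 in the 200 contigs, -0.03 in all contigs, and -0.06 in contigs of 5 CPM or more. In the 200 its range was -1.14 to 1.25 and its median SE 0.428. contig_1003 had the lowest p, with an interaction of -1.09 ± 0.337 (SE; edgeR likelihood ratio FDR = 0.0801). Next to its lower level at LD 16:8 in diapausing females, it had 12.8, 13.2, and 12.1 CPM at the CDL against 10.2, 7.75, and 10.1 CPM at LD 22:2 in nondiapausing females. In both states its CDL libraries were thus above all libraries of the other light cycle.

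contig_3745 of scaffold NW_002014448 came next, with an interaction of 1.18 ± 0.446 (SE; edgeR likelihood ratio FDR = 0.235). It had 55.1, 48.1, and 41.1 CPM at LD 16:8 against 55.7, 24.2, and 25.0 CPM at the CDL in diapausing libraries, and 6.51, 5.36, and 8.37 CPM at the CDL against 10.1, 9.88, and 11.4 CPM at LD 22:2 in nondiapausing females. The diapausing CDL library of line 175OJ8 was level with the LD 16:8 libraries, which are of that line, and those of 265OJ8 and 3OL8 were low. With isofemale line as a term the interaction was 0.33 (edgeR FDR = 0.911). Without the diapausing 175OJ8 CDL library contig_3745 passed the threshold for LD 16:8 over CDL (log2 fold change of 0.99, edgeR FDR = 0.0223). It then also passed for the interaction (1.70, edgeR FDR = 0.00138). The diapausing comparison is then wholly one of 175OJ8 with other lines. Light cycle and line cannot be told apart in it, nor in the diapausing part of the interaction.

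**Figure D4:**
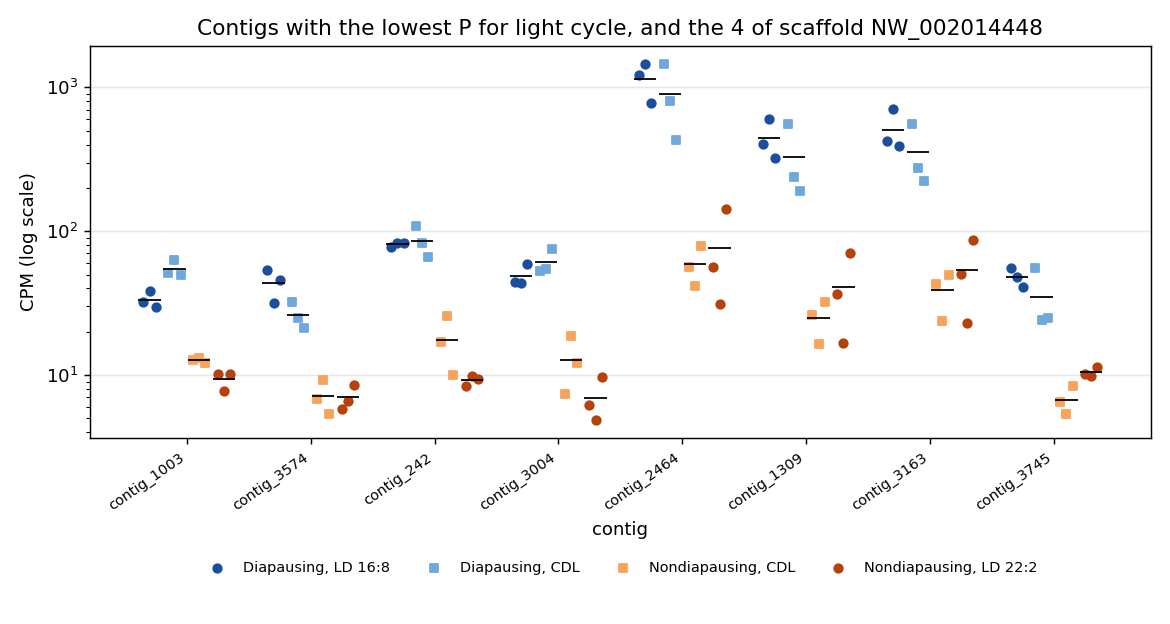
CPM (log axis) in each library of the contigs with the lowest p for light cycle (contig_1003, contig_3574, contig_242, contig_3004) and of the 4 contigs with the hit NW_002014448, with a point per library, CDL points in the order of lines 175OJ8, 265OJ8, and 3OL8, and a bar at the group mean. contig_1003 has CDL libraries above those of the other light cycle in both states, and the CDL libraries of contig_3745 in diapausing females split into 55.7 CPM in 175OJ8 and 24.2 and 25.0 CPM in the others.

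Line 3OL8 was compared with the mean of lines 175OJ8 and 265OJ8 at the CDL, over both states. None of the 200 contigs was DE at FDR 0.05 in the edgeR likelihood ratio test, where 1.42% of all contigs were. At an unadjusted p under 0.05 in the likelihood ratio test there were 18, where 8.82% of all contigs were. The quasi-likelihood test had 21 and DESeq2 had 25, with no share over all contigs beside them, so nothing is read from these counts. The quasi-likelihood test called none (1.04% of all contigs), and DESeq2 called contig_678 (2.7% of those with an adjusted p). The direction was uneven. The fold change was below 1 in line 3OL8 for 172 of the 200 contigs (86.0%) against 54.2% of contigs of 5 CPM or more, and the median log2 fold change was -0.18 against -0.03 in those contigs, with a range of -1.07 to 0.64 and a median SE of 0.293. The median was -0.20 on library totals, -0.10 without the diapausing 3OL8 library, and -0.26 without the nondiapausing 3OL8 library.

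By library, 3OL8 was below both other lines in diapausing females in 132 contigs (38.7% of contigs), in nondiapausing females in 100 (40.6%), and in both states in 66 (20.1%), and it was above both in diapausing females in 17 (29.7%), in nondiapausing females in 45 (29.9%), and in both states in 4 (12.9%). The median CPM of the 200 contigs was 66.7 in the diapausing CDL library of 3OL8 against 87.8 and 88.9 in those of 175OJ8 and 265OJ8, and 19.1 in the nondiapausing CDL library of 3OL8 against 20.0 and 20.9 in those of 175OJ8 and 265OJ8. The difference was thus wider in diapausing than in nondiapausing females, which was not tested. Both 3OL8 libraries had the lowest read total of their state (4679623 reads in diapausing and 2986505 in nondiapausing females). The part of depth in this pattern was not tested, and since the line had 1 library per state, line and library cannot be told apart. Because the choice of the contigs used the level in every library, these counts are also not independent of it.

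contig_15241 (XP_002050959) had the lowest p between lines. It had 5.56 CPM in 3OL8 against 15.5 and 11.6 CPM in 175OJ8 and 265OJ8 in diapausing females, and 1.67 CPM in 3OL8 against 2.40 and 2.18 CPM in 175OJ8 and 265OJ8 in nondiapausing females, the lowest of these being 5 reads. Its log2 fold change was -1.07 ± 0.370 (SE; edgeR likelihood ratio FDR = 0.144), and -0.42 without the diapausing 3OL8 library. contig_1382 (XP_002049192) had 31.8 CPM in 3OL8 against 82.3 and 59.3 CPM in 175OJ8 and 265OJ8 in diapausing females, and 8.04 CPM in 3OL8 against 10.3 and 11.9 CPM in 175OJ8 and 265OJ8 in nondiapausing females, a log2 fold change of -0.86 ± 0.298 (SE; edgeR likelihood ratio FDR = 0.185), and -0.45 without the diapausing 3OL8 library. 3OL8 was the lowest line in both states for both contigs, and neither passed the threshold. contig_678 (FBgn0200545), the one that DESeq2 called, had 697 CPM in 3OL8 against 1550 and 1280 CPM in 175OJ8 and 265OJ8 in diapausing females, and 125 CPM in 3OL8 against 196 and 235 CPM in 175OJ8 and 265OJ8 in nondiapausing females (log2 fold change of -0.90, adjusted p = 0.0301 with DESeq2, and -0.88 ± 0.316 (SE), FDR = 0.229 with the edgeR likelihood ratio test).

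**Figure D5:**
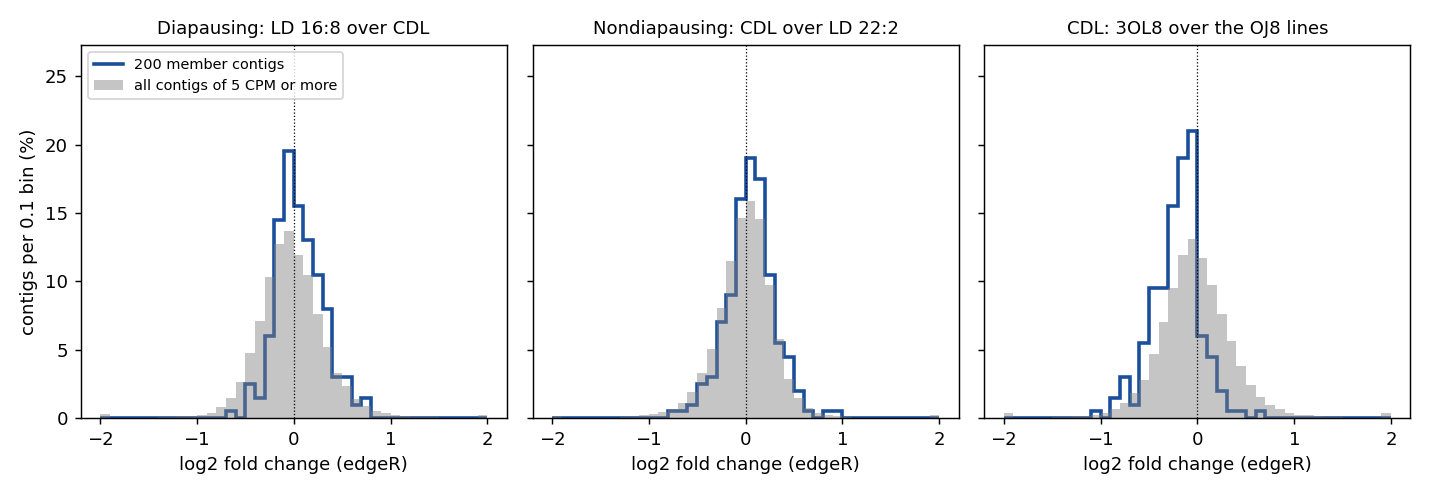
Share of contigs (%) in bins of 0.1 of the log2 fold change for LD 16:8 over CDL in diapausing females, CDL over LD 22:2 in nondiapausing females, and 3OL8 over the OJ8 lines at the CDL, with the 200 contigs as a blue outline and all 21102 contigs of 5 CPM or more in gray, and values beyond 2 in the end bins. The medians of the 200 are 0.02, 0.06, and -0.18, and only the last outline is visibly moved to the left of the gray.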

How the data were processed

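Gene expression was measured by SOLiD RNA-seq in 12 libraries of whole *D. montana* females. The values are raw counts per contig that the authors deposited. The authors trimmed and error-corrected the reads, assembled a transcriptome without a reference genome, removed contigs with a nonarthropod hit, mapped with CLC, and counted uniquely mapped reads with HTSeq, so contigs of similar sequence lose shared reads. Groups came from the sample labels. The labels give 17.5 h of light and 5.5 h of dark at the CDL, which do not add up to 24 h, and 24 h less the dark phase is 18.5 h. The 6 nondiapausing tables each had 2 rows with no contig name, which were left out.

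CPM were computed on library totals with Python 3.11.15 and pandas 2.3.3. All 31233 contigs were fitted in R 4.3.3 with edgeR 4.0.16 (TMM factors, Cox-Reid common, trended, and tagwise dispersions, prior count of 0.125, 4 groups, isofemale line added for the line contrast, likelihood ratio test, Benjamini-Hochberg FDR over all contigs, threshold 0.05), after the study's methods for the model. The fit gave a common dispersion of 0.0564 (biological coefficient of variation, 0.237). SE are from the same fit. Alternatives were the quasi-likelihood test, DESeq2 1.42.0, other scalings, a filter on low counts, another dispersion estimate, a line term, fewer libraries, and each library left out, and the fits were tested on simulated counts. DESeq2 gave no adjusted p for 16, 107, 3, 0, and 9 of the 200 contigs in the diapausing, nondiapausing, interaction, outer cycle, and line contrasts.

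The 200 contigs, the gene lists, and the tests were chosen with earlier results of these data known. Contigs named are the 10 with the highest ratio, the 5 with the highest mean CPM in diapausing females, the 3 on each side of the limit, those of the 5 hits with most contigs (3 hits tied, so 6 are given), in each contrast with none past the threshold the 2 with the lowest p, and the *Yp2* and *Yp3* contigs. Contigs named for consecutive or opposite hits, and contig_678, called by DESeq2, fall outside this rule and were chosen after their values were seen. Names of *Yp2* and *Yp3* come from the study's annotation. Diapausing and nondiapausing CDL libraries of the same line form pairs. Outside the line contrast the main fit had no term for these pairs, and a line term or replicate block was an alternative only. Deviations of the paired libraries from the group means correlated at 0.201, 0.137, and 0.302 over 30474 contigs. Equal replicate numbers at LD 16:8 and LD 22:2 correlated at -0.0197, -0.111, and 0.0573 and share only a number.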

Additional observations from a re-analysis of the deposited data

Results flagged for a closer look

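contig_1003 (hit AAL25292) was higher at the CDL than at the other light cycle in both states. It passed no light cycle test at FDR 0.05 in the edgeR likelihood ratio test. The shorter day of each pair was thus the lower one in diapausing and the higher one in nondiapausing females. The light cycle set against the CDL differed between the states (LD 16:8 and LD 22:2). Every LD 16:8 library was below every CDL library in diapausing females, and every CDL library was above every LD 22:2 library in nondiapausing females, and the interaction was -1.09 on the log2 scale (edgeR likelihood ratio FDR = 0.0801, 0.0443 to 0.404 over the alternatives). Among the 200 contigs only this one (0.5%) had such opposite changes without overlap. Of the 21102 contigs of 5 CPM or more, 479 (2.27%) had them. The choice of the contigs used the level in every library, so nothing is read from the lower share. The CDL libraries were of 3 lines and the others of 175OJ8 alone, and with line as a term the interaction was -0.98 (edgeR FDR = 0.404).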

How the results depend on the processing

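Of the 200 contigs, 96 were among the first 200 when contigs were ranked by the ratio of group means, 181 with 1 CPM added, 197 and 182 with a minimum mean of 1 and 10 CPM, 186 with TMM scaling, and 157 to 193 without 1 library. TMM scaling, an alternative chosen after seeing the data, gave a median fold of 4.99 in place of 3.93.

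The count of DE contigs among the 200 stayed at 0 in all 15 alternatives for nondiapausing females and all 22 for the outer cycles. It was 0 to 1 without 1 library for diapausing females (1 without the 175OJ8 CDL library, contig_3745) and 0 to 1 for the interaction (1 without the second LD 16:8 library, contig_1003, and 1 without the diapausing 175OJ8 CDL library, contig_3745). The interaction count was also 1 with library totals (contig_1003, FDR = 0.0452 with edgeR) and 1 with DESeq2. For line 3OL8 it was 1 with DESeq2 (contig_678, adjusted p = 0.0301) and 1 with the 6 CDL libraries alone (contig_1382, edgeR FDR = 0.0398). The cause was not tested. With the replicate block, in which CDL libraries were paired by line, the outer cycle count was 0, as without it, and the block changed no call.

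Lines that differ only at the CDL, and 1 library per line and state, limit the light cycle and line comparisons. The median SE was 0.29 to 0.428, and how far depth sets it was not tested. Counts are low in 14 contigs, with under 10 reads in at least 1 library.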
